A study of Caenorhabditis elegans with 8 samples.

Results

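The effect of removing *cyp-36A1* from *egl-9(lf)* mutants was described by comparing 2 *cyp-36A1(lf); egl-9(lf)* libraries with the 2 *egl-9(lf)* libraries, which are 4 of the 8 RNA-seq libraries of the series. The comparison ran over the 14311 annotated features with enough counts to test, out of 45461 features in the table. Strain MT22836, *cyp-36A1(lf); egl-9(lf)*, carries *gk824636*, a putative null allele of *cyp-36A1* that came from a public collection of mutagenised strains, together with *egl-9(sa307)*. The *egl-9(lf)* strain, JT307, carries *egl-9(sa307)* alone. Strain CB6088, *egl-9(lf) hif-1(lf)*, which carries *sa307* and *hif-1(ia4)*, and the wild type N2 shared the fitted model, and their levels are given where they help to place a gene. Each library came from whole bodies of about 150 very young adults grown at 22.5°C, and the 2 libraries of a strain were described as biological replicates. Each genotype was 1 strain, so the effect of the *cyp-36A1* allele and that of any other difference between the strains cannot be told apart. Animals with *cyp-36A1(lf)* alone were not analysed here.

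EGL-9 is the prolyl hydroxylase that uses oxygen to mark the transcription factor HIF-1 for degradation, so HIF-1 stays active in *egl-9(lf)* animals as it does in hypoxia. CYP-36A1 belongs to the cytochrome P450 enzymes, which oxidize small molecules such as steroids, fatty acids and foreign compounds. Some products of such enzymes are ligands of nuclear hormone receptors, transcription factors that are switched by small molecules. In *C. elegans* the intestine, which digests food, stores fat and makes yolk, is also a main site of secreted defence proteins, and the epidermis secretes the collagens of the cuticle.

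Expected counts summed to 19703384 and 16250547 for *cyp-36A1(lf); egl-9(lf)*, against 15866536 and 12938757 for *egl-9(lf)*. Levels are in CPM, which are counts scaled to a common library size by the library total and its TMM factor. A gene was called lower or higher where edgeR's quasi-likelihood test gave a Benjamini-Hochberg adjusted p of at most 0.05 over all tested features, and changes are log2 fold changes of *cyp-36A1(lf); egl-9(lf)* over *egl-9(lf)* with their standard errors (SE). In these bulk samples fewer cells of a type and less RNA per cell cannot be told apart. The summed level of 78 ribosomal protein genes was 100400 CPM in replicate 1 and 73640 CPM in replicate 2 of *cyp-36A1(lf); egl-9(lf)*, against 73900 and 75970 CPM in *egl-9(lf)* and 96830 and 96680 CPM in the wild type. Replicate 1 thus stood apart in this sum from the other 3 libraries compared, and counts are also given without it. Replicate 2 stood apart in other values. *rrn-3.1* made up 3.97% of its counts, against 2.37% in replicate 1 and 2.69% and 2.56% in *egl-9(lf)*. The *col* genes summed to 30390 CPM in replicate 2, against 40350 CPM in replicate 1 and 33850 and 38650 CPM in *egl-9(lf)*.

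The targeted genes were examined first. *cyp-36A1* RNA was at 4.82 and 19.2 CPM in *cyp-36A1(lf); egl-9(lf)* animals, against 29.3 and 54.7 CPM in *egl-9(lf)* animals and 5.79 and 8.97 CPM in the wild type. The strains did not overlap, but the replicates of each strain lay far apart, and the log2 fold change of -1.81 (SE 0.50) was not called (edgeR adjusted p = 0.116). Under a block for replicate number it was called, at -1.94 on the log2 scale, and without replicate 2 of *cyp-36A1(lf); egl-9(lf)* it was called at -3.12. A putative null allele can leave RNA in place, so this level does not check the labels. *egl-9* RNA was at 86.3 and 112 CPM in *cyp-36A1(lf); egl-9(lf)* animals and at 87.3 and 100.5 CPM in *egl-9(lf)* animals, with a log2 fold change of 0.07 (SE 0.13), and the strains overlapped.

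In *cyp-36A1(lf); egl-9(lf)* animals 186 genes were lower and 148 higher than in *egl-9(lf)* animals. These are 1.30% and 1.03% of the tested features. Of the lower genes 160 fell at least 2-fold and 66 at least 8-fold, and of the higher genes 41 rose at least 8-fold. The median change was -2.04 on the log2 scale among the lower genes and 1.65 among the higher genes, against 0.02 over all tested features. The 2 strains did not overlap for any called gene, and of all tested features 15.7% did not overlap with *cyp-36A1(lf); egl-9(lf)* lower and 20.9% with it higher. Without replicate 1 of *cyp-36A1(lf); egl-9(lf)* 89 genes were lower and 78 higher, and without replicate 1 of *egl-9(lf)* 87 were higher. With each of the 4 libraries left out in turn, 68 of the 186 lower genes and 63 of the 148 higher genes were called every time. A block for replicate number gave 369 lower and 272 higher genes.

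**Figure D1:**
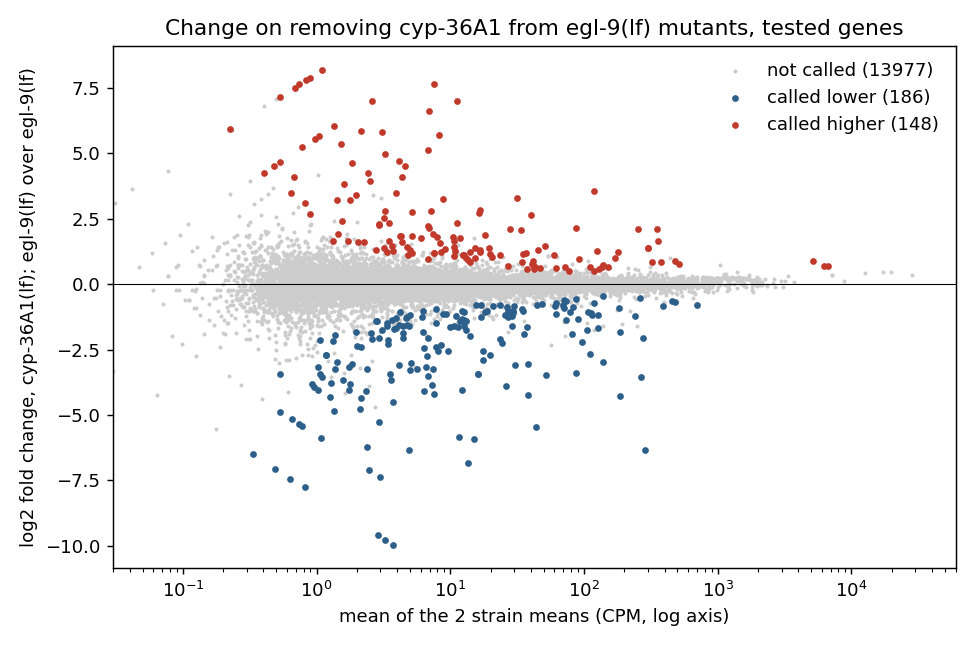
Log2 fold change of *cyp-36A1(lf); egl-9(lf)* over *egl-9(lf)* for each of the 14311 tested features, against the mean of both strain means in CPM on a log axis. The 186 features called lower are blue and the 148 called higher red, 7 of each were at 0 counts in both libraries of the lower strain so that their plotted values are no bounds, and the 3 red points farthest to the right are vitellogenin genes.

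To place these genes, each was given a state in *egl-9(lf)* over the wild type. Genes called at least 2-fold higher in *egl-9(lf)* are termed raised (519 genes, 3.63% of those tested), genes called at least 2-fold lower are termed lowered (1463 genes, 10.2%), and genes not called with a change of under 1.5-fold are termed unchanged (9537 genes, 66.6%). A gene termed unchanged was not called with 2 libraries per strain, which is not evidence that it did not change. Both comparisons use the same *egl-9(lf)* libraries, so the counts that follow are a description. Of the 186 lower genes 96 had been raised in *egl-9(lf)*, 44 were unchanged and 12 had been lowered. Of the 148 higher genes 102 had been lowered, 13 were unchanged and 7 had been raised. Under the replicate block the lower genes comprised 165 raised and 103 unchanged genes, and the higher genes comprised 166 lowered and 30 unchanged genes. Without replicate 1 of *cyp-36A1(lf); egl-9(lf)* the lower genes comprised 46 raised and 17 unchanged genes, and the higher genes comprised 57 lowered and 4 unchanged genes. Without its replicate 2, 55 of the lower genes were raised ones. Without replicate 1 of *egl-9(lf)* 63 of the higher genes were lowered ones and 7 were unchanged.

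Genes of the hypoxia pathway came next. Of 16 tested members of the EGL-9/HIF-1 pathway and their targets none was called by edgeR. At an unadjusted p under 0.05, 3 were lower and 2 higher. Over all 14311 tested features 698 were lower and 647 higher at that threshold, beside which such counts of later lists can be set. DESeq2 called 1 of the 16 members higher, limma none, and blocking by replicate number gave 1 lower and 1 higher. Without the filter on low counts edgeR called *cyp-36A1* and *sqrd-1* lower and F22B5.4 higher, and with the revised dispersion estimate and no filter it called *fmo-2* higher. Their median log2 fold change was 0.04. *cysl-2*, a cysteine synthase-like HIF-1 target, was at 1029 and 865 CPM in *cyp-36A1(lf); egl-9(lf)* animals, against 873 and 898 CPM in *egl-9(lf)* animals and 16.6 and 22.6 CPM in the wild type. *rhy-1*, which encodes a membrane protein that acts in this pathway, was at 352 and 403 CPM against 346 and 399 CPM in *egl-9(lf)*, with a log2 fold change of 0.02 (SE 0.15). *nhr-57*, a nuclear receptor gene used as a marker of HIF-1 activity, was at 143 and 147 CPM against 125 and 150.1 CPM. In all 3 genes the strains overlapped, as they did for *cysl-1*.

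*hif-1* itself was at 129 and 142 CPM in *cyp-36A1(lf); egl-9(lf)* animals and at 161 and 142 CPM in *egl-9(lf)* animals. *nhr-46*, which encodes a nuclear hormone receptor, was at 36.2 and 39.8 CPM against 48.4 and 49.4 CPM, a log2 fold change of -0.36 (SE 0.11, edgeR adjusted p = 0.196). The strains did not overlap for *nhr-46*, but the difference was not past the threshold. *sqrd-1*, which encodes a sulfide-oxidizing enzyme, was at 233 and 252 CPM in *cyp-36A1(lf); egl-9(lf)* animals and 303 and 359.5 CPM in *egl-9(lf)* animals, a log2 fold change of -0.45 (edgeR adjusted p = 0.252, and 0.00682 without the filter). F22B5.4, a target of HIF-1, was at 133 and 115 CPM against 84.1 and 83.5 CPM, a log2 fold change of 0.57 (SE 0.15, edgeR adjusted p = 0.0959), and was called higher with replicate number as a block, also at 0.57, and with DESeq2. The other tested members (*phy-2*, *swan-1*, *cysl-1*, *aha-1*, *ethe-1*, *vhl-1* and *fmo-2*) had log2 fold changes of -0.22 to 0.88, with adjusted p of 0.119 or more by edgeR.

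Defence genes were among those that fell. Their list was chosen with earlier results of these data known. It holds *sysm-1* (T24B8.5), whose change in these data the study had reported, so its count is a description. Over all tested features 1.30% were lower and 1.03% higher, beside which the counts of this and later lists can be set. Of 23 tested infection-response genes and intestinal effectors of the p38 kinase PMK-1, 10 fell and 2 rose, with a median log2 fold change of -0.77, and without replicate 1 of *cyp-36A1(lf); egl-9(lf)* 7 fell and 1 rose. *irg-5*, an infection response gene, was at 7.35 and 6.47 CPM in *cyp-36A1(lf); egl-9(lf)* animals, against 585 and 545 CPM in *egl-9(lf)* animals and 30.7 and 28.2 CPM in the wild type. The log2 fold change was -6.35 (SE 0.13, edgeR adjusted p = 1.3e-09), and the level without *cyp-36A1* lay below that of wild-type animals. *sysm-1*, which encodes a small secreted peptide related to ShK toxins, was at 1.76 and 2.16 CPM against 76.3 and 95.5 CPM in *egl-9(lf)* and 20.6 and 21.6 CPM in the wild type, and so it too came to lie below the wild type. *irg-4*, another infection response gene, was at 109 and 102 CPM against 416 and 468 CPM in *egl-9(lf)* and 62.7 and 71.1 CPM in the wild type. *dod-24*, a gene regulated by infection and by the transcription factor DAF-16, was at 284 and 278 CPM against 483 and 522 CPM in *egl-9(lf)* and 61.1 and 59.7 CPM in the wild type, and its edgeR adjusted p of 0.00536 became 0.05, just past the threshold, without replicate 1 of *cyp-36A1(lf); egl-9(lf)*. Both *irg-4* and *dod-24* thus stayed above the wild type.

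F55G11.8 fell by 3.04 on the log2 scale, and the other members that fell were *mul-1*, *dod-22*, *zip-2*, *lys-2* and *irg-6*. The call of *irg-6* held in 1 of the 4 fits with a library left out, with adjusted p of up to 0.11 by edgeR. *zip-2* encodes a bZIP transcription factor of the infection response and was at 82.4 and 74.4 CPM in *cyp-36A1(lf); egl-9(lf)* animals, against 212 and 145 CPM in *egl-9(lf)* animals and 134 and 102 CPM in the wild type. Its edgeR adjusted p of 0.00414 reached 0.051 without replicate 2 of *cyp-36A1(lf); egl-9(lf)*. The members that rose were *clec-60*, at 27.03 and 30.1 CPM against 7.51 and 7.92 CPM, and *irg-3*, at 18.6 and 16.8 CPM against 9.44 and 9.27 CPM, the second with adjusted p of up to 0.14 by edgeR with 1 of the 4 libraries left out. *clec-60* was at 0.182 and 0.342 CPM in the wild type, so that it was raised in *egl-9(lf)* and higher still without *cyp-36A1*.

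**Figure D2:**
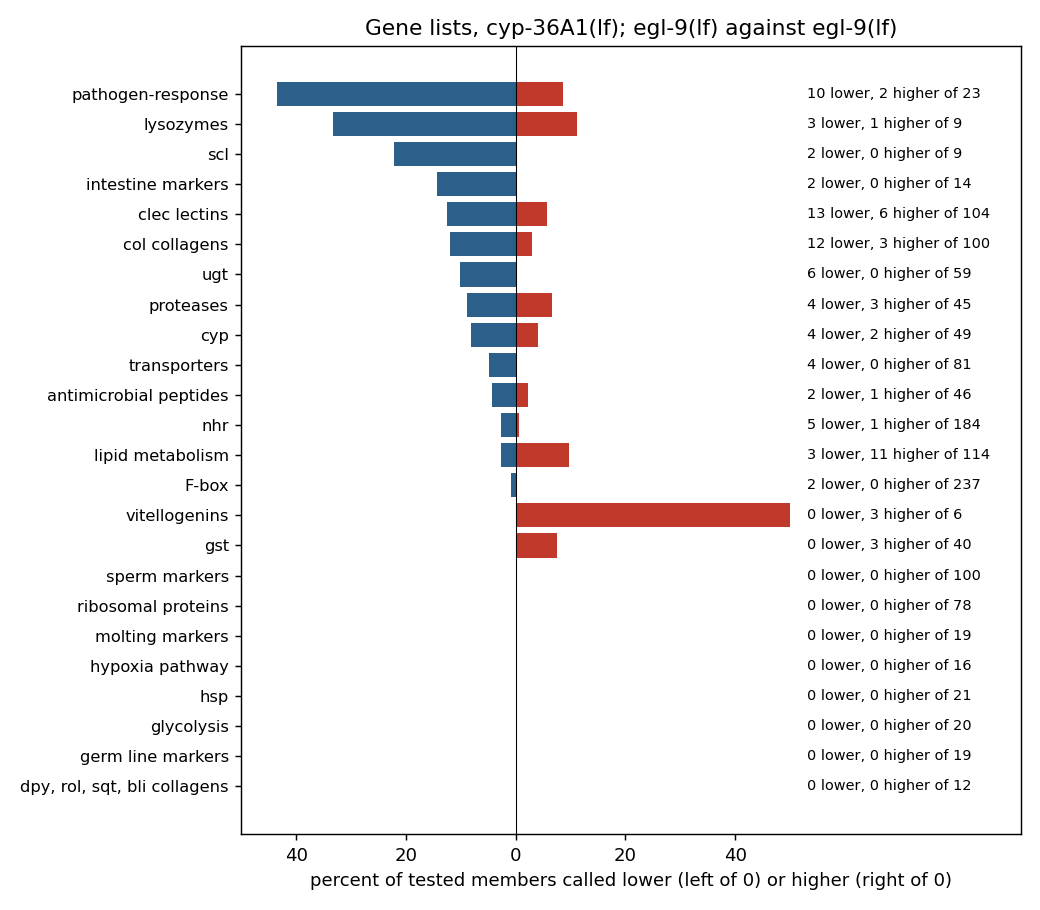
Share of the tested members of gene lists called lower (blue, left of 0) or higher (red, right of 0) in *cyp-36A1(lf); egl-9(lf)* against *egl-9(lf)*, with the counts beside each bar. The pathogen-response list had 10 of 23 members lower, 3 of 6 vitellogenins were higher, and no member of the hypoxia pathway, molting, germ line or sperm lists was called. Over all tested features 1.30% were lower and 1.03% higher, and the lists were chosen with earlier results of these data known.

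C-type lectin genes, which encode secreted proteins with carbohydrate-binding domains, moved in both directions. Of 104 tested *clec* genes 13 fell and 6 rose, with a median change of 0.00, and without replicate 1 of *cyp-36A1(lf); egl-9(lf)* 6 fell and 2 rose. *clec-52* was at 8.91 and 8.14 CPM in *cyp-36A1(lf); egl-9(lf)* animals, against 94.3 and 95.8 CPM in *egl-9(lf)* animals and 2.33 and 2.73 CPM in the wild type, a log2 fold change of -3.48 (SE 0.16, edgeR adjusted p = 1.1e-06). *clec-209* was at 45.2 and 39.2 CPM against 459.7 and 517 CPM in *egl-9(lf)* and 1073 and 985 CPM in the wild type. *clec-52* thus fell towards the wild-type level, while *clec-209* had already been lowered in *egl-9(lf)* and was lower again without *cyp-36A1*. *clec-66* and *clec-150* fell by 2.88 and 1.38 on the log2 scale, and *clec-17* by 5.88, the last with adjusted p of up to 0.16 by edgeR with 1 of the 4 libraries left out. *clec-42* was at 0.0518 and 0 CPM against 4.09 and 5.68 CPM in *egl-9(lf)* and 0.0456 and 0.0854 CPM in the wild type, so that it was expressed mainly in *egl-9(lf)*.

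Lysozymes, which break down bacterial cell walls, also split, with 3 lower and 1 higher of 9 tested, and 1 lower and 1 higher without replicate 1 of *cyp-36A1(lf); egl-9(lf)*. *lys-7* was at 34.3 and 28.4 CPM in *cyp-36A1(lf); egl-9(lf)* animals, against 214 and 273 CPM in *egl-9(lf)* animals and 22.3 and 25.4 CPM in the wild type, a log2 fold change of -2.96 (SE 0.22, edgeR adjusted p = 2.6e-05). *ilys-5*, an invertebrate-type lysozyme, was at 627 and 507 CPM against 115 and 146 CPM in *egl-9(lf)* and 545 and 568 CPM in the wild type, a log2 fold change of 2.12 (SE 0.15, edgeR adjusted p = 1.8e-05). *lys-7* remained above the wild type and *ilys-5* overlapped it. *lys-2* and *lys-4* fell by 1.16 and 0.82 on the log2 scale, with adjusted p of up to 0.078 and 0.14 by edgeR with 1 library left out. Only *lys-7* among the 3 lower lysozymes was called with each of the 4 libraries left out in turn.

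Of 46 tested genes for antimicrobial peptides *abf-2* and *fip-3* fell and *spp-17*, a saposin-like gene, rose. Under the replicate block 7 fell and 5 rose, and without replicate 1 of *cyp-36A1(lf); egl-9(lf)* 1 fell and 1 rose. *spp-17* was at 203 and 149 CPM in *cyp-36A1(lf); egl-9(lf)* animals, against 68.2 and 77.5 CPM in *egl-9(lf)* animals and 238 and 250.5 CPM in the wild type. *abf-2*, an antibacterial factor gene, was at 0.155 and 0.0617 CPM against 2.10 and 1.79 CPM in *egl-9(lf)*, and its edgeR adjusted p of 0.00366 reached 0.051 without replicate 2 of *cyp-36A1(lf); egl-9(lf)*. *fip-3*, named for induction by fungi, was at 0 in both *cyp-36A1(lf); egl-9(lf)* libraries and under 1 CPM in *egl-9(lf)*, and without either *cyp-36A1(lf); egl-9(lf)* library it was not called, with adjusted p of up to 0.33 by edgeR. *nlp-29*, an epidermal antimicrobial peptide gene, and *nlp-24* were the called members among 69 *nlp* genes. Both fell, by 1.06 and 0.89 on the log2 scale, with adjusted p of up to 0.18 and 0.27 by edgeR with 1 library left out.

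**Figure D3:**
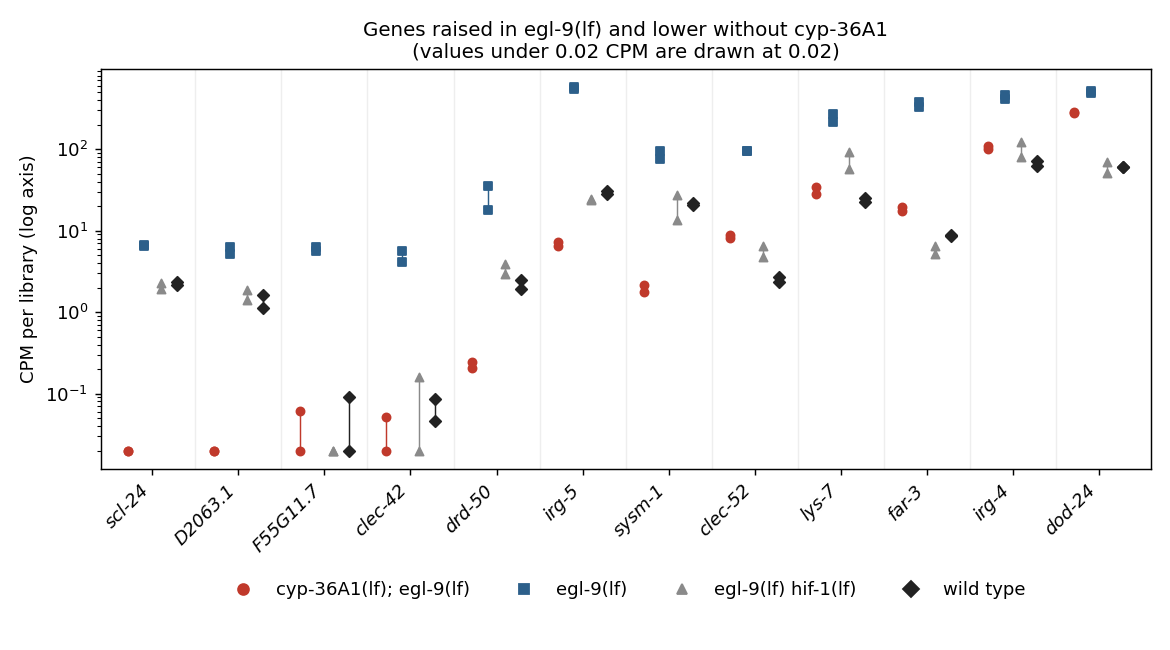
CPM in each library, on a log axis, of 12 genes raised in *egl-9(lf)* and lower without *cyp-36A1*, beside *egl-9(lf) hif-1(lf)* and wild-type libraries, with values under 0.02 CPM drawn at 0.02. *irg-5*, *sysm-1* and *drd-50* lie below the wild type without *cyp-36A1*, whereas *clec-52*, *far-3* and *dod-24* stay above it.

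Several of the genes that fell furthest were not detected without *cyp-36A1*. *scl-24*, which encodes a secreted protein of the SCP family, was at 0 counts in both *cyp-36A1(lf); egl-9(lf)* libraries, against 6.67 and 6.43 CPM in *egl-9(lf)* libraries and 2.33 and 2.13 CPM in the wild type. Against a limit of 3 counts over both libraries of the strain it was at least 77.7-fold lower. In the same way D2063.1 was at least 69.1-fold lower, Y14H12A.2 at least 18.9-fold and *numr-1*, a metal-responsive gene, at least 15.4-fold, and all of these had counts in the wild type. The edgeR call of *numr-1* was lost without either *cyp-36A1(lf); egl-9(lf)* library, with adjusted p of up to 0.094. *scl-25*, a further SCP gene, was at 0 and 0.0617 CPM against 1.202 and 1.35 CPM in *egl-9(lf)*, and its adjusted p reached 0.11 by edgeR without replicate 1 of *cyp-36A1(lf); egl-9(lf)*. F48C1.9 was at 0.466 and 0.308 CPM against 16.8 and 29.01 CPM in *egl-9(lf)* and 0.274 and 0.171 CPM in the wild type. Its log2 fold change over the wild type was 0.72 (SE 0.65, edgeR adjusted p = 0.471) and was not called at these low levels.

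F44E5.4 needs care, because it was at 0 in both *cyp-36A1(lf); egl-9(lf)* libraries while its neighbour F44E5.5 had counts in that strain alone, at 0.777 and 1.97 CPM. Both belong to the HSP70 family of chaperone genes, and RSEM divides reads between similar copies. Their summed level was 0.777 and 1.97 CPM in *cyp-36A1(lf); egl-9(lf)*, against 3.01 and 11.96 CPM in *egl-9(lf)* and 2.33 and 4.36 CPM in the wild type, so neither gene is given a fold change. The edgeR call of F44E5.4 was lost without either *cyp-36A1(lf); egl-9(lf)* library and that of F44E5.5 without any of the 4 libraries, with adjusted p of up to 0.11 and 0.19.

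Some neighbouring genes fell together. Of the 180 lower protein-coding genes 29 lay next to another lower gene in the RefSeq gene order, a share of 16.1%, whereas 1.68% of all tested protein-coding genes lay next to a lower gene. The 4 adjacent genes *drd-50*, F49F1.5, *mul-1* and F49F1.7 on linkage group IV summed to 1.502 and 1.73 CPM in *cyp-36A1(lf); egl-9(lf)* animals, against 58.3 and 93.8 CPM in *egl-9(lf)* animals and 4.70 and 6.66 CPM in the wild type. *mul-1* is named as a mucin-like gene. *drd-50* was at 0.207 and 0.247 CPM against 17.9 and 35.5 CPM, a log2 fold change of -6.84 (SE 0.46, edgeR adjusted p = 1.6e-05), and F49F1.7 fell by 5.92 on the log2 scale. In all 4 genes the strains did not overlap.

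A second run on linkage group IV held F55G11.6, F55G11.7, F55G11.8 and *dod-22*. F55G11.7 was at 0 and 0.0617 CPM against 5.59 and 6.28 CPM in *egl-9(lf)* and 0.0912 and 0 CPM in the wild type. F55G11.6 was at 0.104 and 0 CPM against 4.45 and 4.93 CPM in *egl-9(lf)* and 0 in both wild-type libraries. Both of these genes were thus expressed in *egl-9(lf)* almost alone. On linkage group V *irg-5* lay between F35E12.6 and F35E12.9, which fell less. F35E12.6 was at 40.4 and 37.2 CPM against 82.5 and 87.1 CPM, and F35E12.9 at 20.04 and 26.8 CPM against 44.5 and 45.9 CPM. The strand of the reads is not given in the sources used here, so overlapping neighbours can share reads.

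Cuticle collagen genes moved in both directions. Of 100 tested *col* genes 12 fell and 3 rose, with a median log2 fold change of -0.40. Without replicate 1 of *cyp-36A1(lf); egl-9(lf)* 2 fell and 1 rose, and with replicate number as a block 29 fell and 4 rose. *col-135* was at 4.56 and 3.02 CPM in *cyp-36A1(lf); egl-9(lf)* animals, against 75.3 and 69.6 CPM in *egl-9(lf)* animals and 28.4 and 25.1 CPM in the wild type, a log2 fold change of -4.24 (SE 0.24, edgeR adjusted p = 4.0e-06). It was called with each library left out, whereas *col-137*, *col-162* and *col-117*, which fell by 4.51, 3.03 and 1.76 on the log2 scale, each lost the call without 1 or other *cyp-36A1(lf); egl-9(lf)* library, with adjusted p of up to 0.065, 0.084 and 0.061 by edgeR. *col-126* and *col-127* had identical counts in every library, as even division of reads between near-identical copies would give, and are 1 observation.

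The collagens that rose, *col-8*, *col-101* and *col-143*, had been lowered in *egl-9(lf)*. *col-101* was at 701 and 529 CPM in *cyp-36A1(lf); egl-9(lf)* animals, against 319.9 and 351 CPM in *egl-9(lf)* animals and 1218 and 1263 CPM in the wild type, and *col-8* was at 769 and 543 CPM against 353 and 405 CPM in *egl-9(lf)*. The edgeR call of *col-101* was lost without replicate 1 of *egl-9(lf)*, with an adjusted p of 0.069, and that of *col-8* without 3 of the 4 libraries, with adjusted p of up to 0.21. Of 12 tested collagens named for body shape, such as the *dpy*, *rol* and *sqt* genes, none was called by edgeR, 5 had an unadjusted p under 0.05, DESeq2 called 1 and the replicate block 1. Of 19 molting markers none was called, with 4 at an unadjusted p under 0.05, 1 called by DESeq2 and 1 under the replicate block, and their summed level was 187 and 210 CPM in *cyp-36A1(lf); egl-9(lf)* against 225 and 204 CPM in *egl-9(lf)*. Among 38 genes of the hedgehog-related families *grl-21* and *grd-17* fell by 3.85 and 3.81 on the log2 scale and *grd-13* rose by 0.83, and each call was lost with some library left out, with adjusted p of up to 0.11, 0.19 and 0.33 by edgeR.

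Among genes that handle small molecules, 6 of 59 tested *ugt* genes fell and none rose by edgeR, with 7 higher at an unadjusted p under 0.05 and none by DESeq2. These encode UDP-glucuronosyltransferases, which conjugate foreign and endogenous compounds. Under the replicate block 12 fell and 2 rose, and without replicate 1 of *cyp-36A1(lf); egl-9(lf)* 2 fell. *ugt-13* was at 0.984 and 1.23 CPM in *cyp-36A1(lf); egl-9(lf)* animals, against 14.3 and 10.7 CPM in *egl-9(lf)* animals and 16.9 and 18.02 CPM in the wild type, a log2 fold change of -3.50 (SE 0.24, edgeR adjusted p = 1.8e-05). *ugt-41* was at 7.35 and 5.55 CPM against 63.4 and 45.5 CPM in *egl-9(lf)* and 52.1 and 39.5 CPM in the wild type. Both were termed unchanged in *egl-9(lf)* and were low in the strain without *cyp-36A1*. *ugt-14*, the neighbour of *ugt-13*, had been raised in *egl-9(lf)* and fell by 2.05 on the log2 scale, and *ugt-39* fell by 1.37, with adjusted p of up to 0.28 and 0.084 by edgeR with 1 library left out.

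Of 40 *gst* genes, which encode glutathione S-transferases, 3 rose and none fell by edgeR, with 2 lower at an unadjusted p under 0.05 and none by DESeq2. Without replicate 1 of *cyp-36A1(lf); egl-9(lf)* 1 rose. *gst-29* was at 3.21 and 3.21 CPM in *cyp-36A1(lf); egl-9(lf)* animals, against 0.240 and 0.449 CPM in *egl-9(lf)* animals. Its neighbour *gst-28* rose by 1.12 on the log2 scale and *gst-10* by 0.78, with adjusted p of up to 0.093 and 0.37 by edgeR with 1 library left out. Among 49 tested genes of the cytochrome P450 list 4 fell and 2 rose. With replicate number as a block 10 fell and 4 rose, and without replicate 1 of *cyp-36A1(lf); egl-9(lf)* 2 fell. *cyp-33C8* was at 0.932 and 0.925 CPM against 8.95 and 9.12 CPM in *egl-9(lf)*, and *cyp-13B1* at 0.207 and 0.308 CPM against 3.85 and 4.93 CPM. Both had been raised in *egl-9(lf)*, whereas *cyp-32A1*, which fell by 1.69 on the log2 scale, was unchanged there. *cyp-34A10* rose, at 1.14 and 1.23 CPM against 0.120 and 0.0748 CPM, and neither *cyp-32A1* nor *cyp-34A10* was called with each library left out, with adjusted p of up to 0.1 and 0.088 by edgeR.

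Of 81 tested genes for membrane transporters 4 fell and none rose by edgeR, with 2 higher at an unadjusted p under 0.05 and 1 by DESeq2. Of the 4 lower genes 3 encode P-glycoproteins, which export small molecules. With replicate number as a block 6 fell and 2 rose, and without replicate 1 of *cyp-36A1(lf); egl-9(lf)* 2 fell. *pgp-5* was at 0.621 and 1.54 CPM against 9.62 and 10.5 CPM in *egl-9(lf)* and 28.5 and 37.9 CPM in *egl-9(lf) hif-1(lf)*, and its neighbour *pgp-8* at 0.259 and 0.247 CPM against 2.34 and 2.62 CPM in *egl-9(lf)*. *pgp-6* was at 0.518 and 0.925 CPM against 11 and 13.01 CPM, but it spread over 4.19 and 19.8 CPM in the wild type, and its edgeR adjusted p of 0.0377 became 0.4 without replicate 1 of *cyp-36A1(lf); egl-9(lf)*. All 3 genes were lower, and *pgp-6* had the highest adjusted p of them. *slc-5A12* fell by 1.06 on the log2 scale, with adjusted p of up to 0.22 by edgeR with 1 library left out.

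Of 184 tested nuclear hormone receptor genes 5 fell and 1 rose, and without replicate 1 of *cyp-36A1(lf); egl-9(lf)* none fell and 1 rose. In the main fit 2.72% of these receptor genes were lower and 0.543% higher, against 1.30% and 1.03% of all tested features. These small counts are not read as a trait of the family. With replicate number as a block 12 fell and 3 rose. *nhr-74* was at 6.53 and 5.49 CPM in *cyp-36A1(lf); egl-9(lf)* animals, against 0.0601 and 0.149 CPM in *egl-9(lf)* animals, 8.53 and 12.7 CPM in *egl-9(lf) hif-1(lf)* animals and 9.44 and 6.41 CPM in the wild type. Its log2 fold change was 5.81 (SE 0.51, edgeR adjusted p = 8.7e-05), so that a receptor gene nearly undetected in *egl-9(lf)* overlapped its wild-type level. *nhr-112*, *nhr-203* and *nhr-11* fell by 3.17, 2.12 and 1.81 on the log2 scale, and each lost its call with some library left out, with adjusted p of up to 0.05, 0.13 and 0.084 by edgeR.

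**Figure D4:**
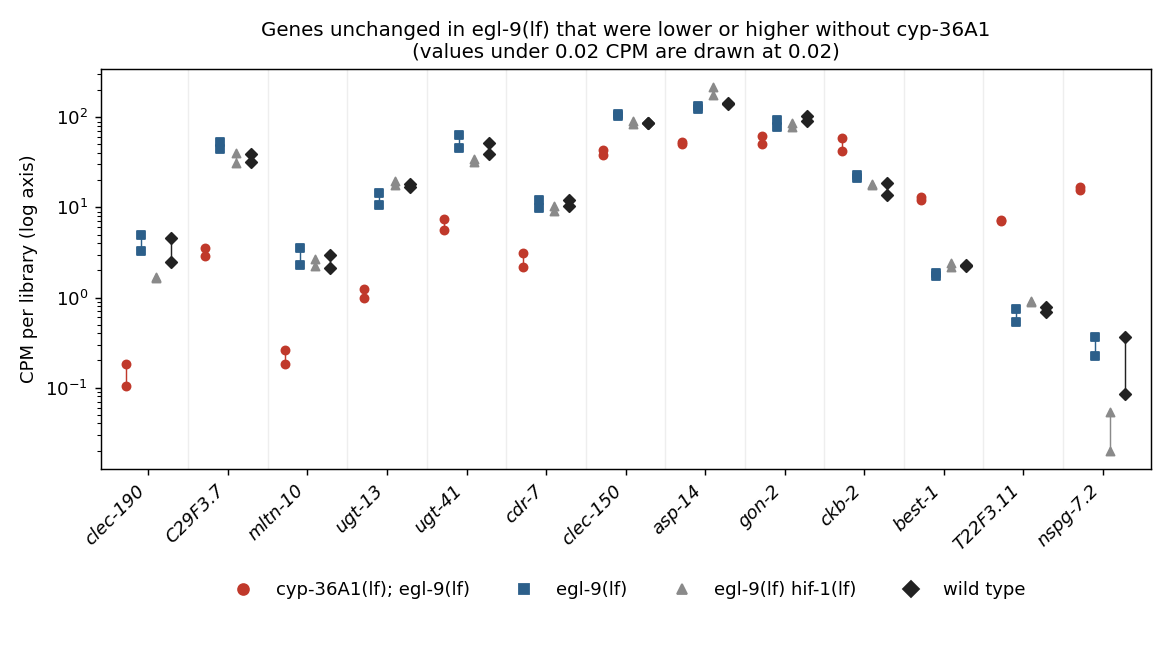
CPM in each library, on a log axis, of 13 genes that were unchanged in *egl-9(lf)*, with values under 0.02 CPM drawn at 0.02. From *clec-190* to *gon-2* both *cyp-36A1(lf); egl-9(lf)* libraries lie below all libraries of the other strains, and from *ckb-2* to *nspg-7.2* they lie above them.

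The 44 lower genes that were unchanged in *egl-9(lf)* stood below both wild-type libraries in each case, which their selection largely fixes. Their median level was 3.67 CPM in *cyp-36A1(lf); egl-9(lf)* animals, against 12 CPM in *egl-9(lf)*, 12.9 CPM in *egl-9(lf) hif-1(lf)* and 12.7 CPM in wild-type animals. C29F3.7 was at 3.57 and 2.90 CPM, against 44.6 and 52.8 CPM in *egl-9(lf)* and 39.0 and 32.2 CPM in the wild type, a log2 fold change of -3.90 (SE 0.20, edgeR adjusted p = 2.1e-06). *clec-190*, a C-type lectin gene, was at 0.104 and 0.185 CPM against 3.25 and 4.93 CPM in *egl-9(lf)* and 2.51 and 4.53 CPM in the wild type. *mltn-10*, whose name marks it as related to the molting gene *mlt-10*, was at 0.259 and 0.185 CPM against 3.55 and 2.32 CPM in *egl-9(lf)* and 2.14 and 2.99 CPM in the wild type. In these genes, as in *ugt-13* and *ugt-41*, all libraries of the other 3 strains lay above both *cyp-36A1(lf); egl-9(lf)* libraries.

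Other members of this group fell by smaller factors. *asp-14*, an aspartyl protease gene, was at 53.2 and 50.2 CPM in *cyp-36A1(lf); egl-9(lf)* animals, against 135 and 125 CPM in *egl-9(lf)* animals and 142 and 146 CPM in the wild type, a log2 fold change of -1.33 (SE 0.12, edgeR adjusted p = 1.2e-04). *clec-150* was at 43.3 and 38.3 CPM against 105 and 108 CPM in *egl-9(lf)* and 85.8 and 87.4 CPM in the wild type. Its *egl-9(lf)* libraries thus lay above those of the wild type, though this difference was not called. The serpin gene *srp-2*, which a list of chemoreceptor name prefixes also took in, was at 5.33 and 5.79 CPM against 15.02 and 19.7 CPM, and *cdr-7*, of a cadmium-responsive family, at 3.16 and 2.16 CPM against 9.92 and 12.1 CPM. All 4 genes were called with each of the 4 libraries left out. C47E12.9, *ttr-28*, F08D12.2 and K12B6.9 fell by 3.54, 3.17, 2.29 and 1.73 on the log2 scale, and all but C47E12.9 lost the call with some library left out, with adjusted p of up to 0.05, 0.084 and 0.054 by edgeR. The changes of the 44 genes in *egl-9(lf)* over the wild type ran from -0.48 (*ugt-13*) to 0.53 (*cyp-32A1*) on the log2 scale, and the nearest lower genes that were not called in *egl-9(lf)* but lay outside the definition were *cdr-2* at -0.75 and Y73F8A.35 at 0.66.

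The 13 higher genes that were unchanged in *egl-9(lf)* were above both wild-type libraries in each case, which their selection also largely fixes. *nspg-7.2*, of a nematode-specific peptide family, was at 16.7 and 15.5 CPM in *cyp-36A1(lf); egl-9(lf)* animals, against 0.361 and 0.224 CPM in *egl-9(lf)* animals and 0.365 and 0.0854 CPM in the wild type, a log2 fold change of 5.72 (SE 0.42, edgeR adjusted p = 2.3e-05). T22F3.11 was at 7.15 and 7.21 CPM against 0.541 and 0.748 CPM in *egl-9(lf)*, and *best-1*, a gene of the bestrophin chloride channel family, at 13.2 and 11.96 CPM against 1.86 and 1.72 CPM. For these 3 genes each library of the other strains lay below both *cyp-36A1(lf); egl-9(lf)* libraries. C33G8.2 rose by 1.47, *ckb-2*, a choline kinase gene, by 1.21 and *far-7*, a gene for a fatty acid and retinol binding protein, by 1.25 on the log2 scale. The edgeR call of *ckb-2* was lost without replicate 1 of *cyp-36A1(lf); egl-9(lf)* (adjusted p = 0.072), and that of *far-7* also without replicate 2 of *egl-9(lf)*, with adjusted p of up to 0.27. *adh-1*, an alcohol dehydrogenase gene, was at 466 and 356 CPM against 145 and 45.3 CPM in *egl-9(lf)* and 107 and 55.2 CPM in the wild type, and its replicates varied so much that its edgeR adjusted p was 0.0497 with all libraries and up to 0.32 with 1 left out.

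Most of the largest rises were in genes that *egl-9(lf)* had lowered. *amt-1*, a gene of the ammonium transporter family, was at 22.1 and 22.4 CPM in *cyp-36A1(lf); egl-9(lf)* animals, against 0.120 and 0.224 CPM in *egl-9(lf)* animals, 6.87 and 11.12 CPM in *egl-9(lf) hif-1(lf)* animals and 3.42 and 3.50 CPM in the wild type. The log2 fold change was 6.99 (SE 0.39, edgeR adjusted p = 3.6e-06), and the level came to lie above the wild type. Its family member *amt-4* fell, at 25.3 and 20.9 CPM against 48.9 and 45.2 CPM in *egl-9(lf)* and 78.9 and 73.9 CPM in the wild type. T19H12.6 was at 15.7 and 11.6 CPM against 0.180 and 0.0748 CPM in *egl-9(lf)* and 1.596 and 2.39 CPM in the wild type. *dhs-16*, a short-chain dehydrogenase gene, was at 1.29 and 2.53 CPM against 0.0601 and 0 CPM in *egl-9(lf)*. C17B7.3, T28A11.3 and Y73C8C.4 were at 0 in both *egl-9(lf)* libraries and higher by at least 22.2-fold, 17.7-fold and 16.6-fold without *cyp-36A1*. F35E8.10, which was not called in *egl-9(lf)* over the wild type, and T28A11.20 were at least 15.2-fold and 10.4-fold higher, but they lost their calls by edgeR without replicate 1 of *egl-9(lf)*, among others, with adjusted p of up to 0.21 and 0.091 over the 4 libraries left out.

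Many of the higher genes lay on linkage group V. It held 72 of the 143 higher protein-coding genes, a share of 50.3%, and 70 of the 180 lower ones, 38.9%, against 19.2% of all tested protein-coding genes. Linkage group I, where *cyp-36A1* lies, held 16.7% of the tested genes but 3.89% of the lower and 7.69% of the higher ones. Of the higher genes 28.7% lay next to another higher gene, whereas 1.30% of all tested protein-coding genes lay next to a higher gene. In windows of 100 consecutive tested protein-coding genes, a description added after the calls were seen, the median was 1 higher gene among 133 windows. One window near the start of linkage group V held 25 higher genes and the window before it held 9, and no other window held more than 6.

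**Figure D5:**
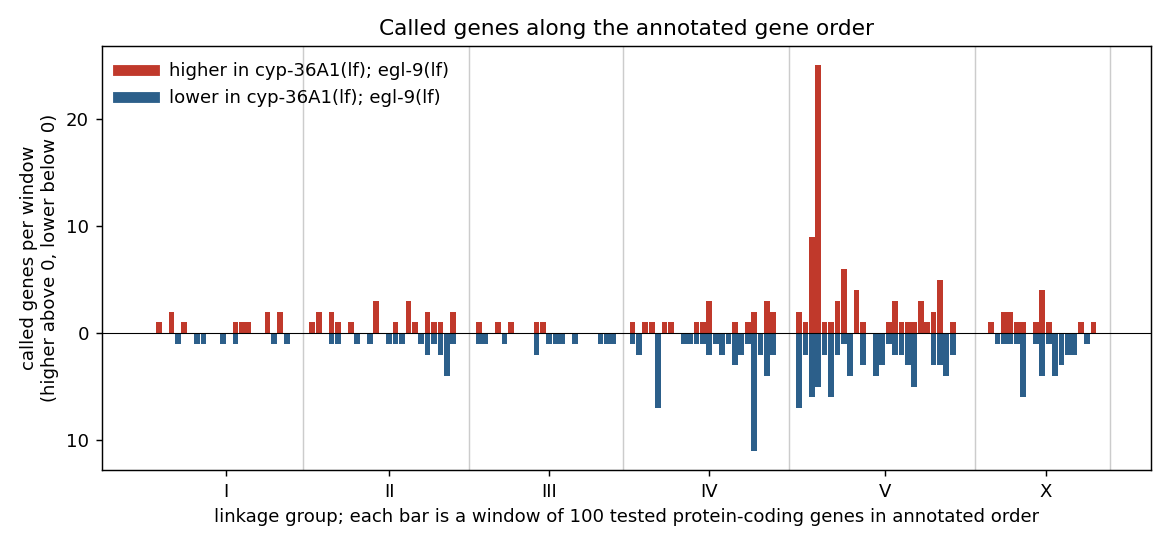
Genes called higher (red, above 0) and lower (blue, below 0) in *cyp-36A1(lf); egl-9(lf)* in windows of 100 tested protein-coding genes along the annotated order of each linkage group. A single window of linkage group V holds 25 higher genes, and the window with the most lower genes, 11, is on linkage group IV.

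Within that window the stretch from T28A11.16 to T20D4.3 had 30 tested genes, of which 21 were higher and none lower. Those 21 genes summed to 135 and 117 CPM in *cyp-36A1(lf); egl-9(lf)* animals, against 17.1 and 15.3 CPM in *egl-9(lf)* animals, 99.0 and 97.3 CPM in *egl-9(lf) hif-1(lf)* animals and 94.7 and 84.0 CPM in the wild type. The selection of these genes as higher than in *egl-9(lf)* fixes its low sum beside *cyp-36A1(lf); egl-9(lf)*. The same *egl-9(lf)* libraries enter the comparisons with the other strains, where its sum was also the lowest. All 21 genes had lower mean levels in *egl-9(lf)* than in *egl-9(lf) hif-1(lf)*. This order was not particular to the stretch. The 102 higher genes lowered in *egl-9(lf)*, 19 of them in the stretch, had medians of 2.678 CPM in *egl-9(lf)* and 10.74 CPM in *egl-9(lf) hif-1(lf)*. F35F10.5 was at 14.7 and 15.2 CPM against 0 and 0.149 CPM in *egl-9(lf)*, and T20D4.11 at 8.03 and 7.95 CPM against 0.481 and 0.0748 CPM. T28A11.19 was at 6.01 and 4.32 CPM against 0.0601 and 0 CPM. The 9 genes of the stretch that were not called, *fbxa-64*, *arrd-18* and *arrd-19* among them, had a median log2 fold change of 0.63. An effect of the *cyp-36A1* allele on these genes and a difference between the strains in this region cannot be told apart. Outside this stretch 127 genes were higher, of which 83 had been lowered in *egl-9(lf)*.

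A further run on linkage group V held the *pud* genes, named for proteins that are abundant in mutants of the insulin receptor DAF-2. All 5 tested *pud* genes rose, and of these *pud-2.1* and *pud-2.2* had identical counts in every library and are 1 observation. *pud-3* was at 212 and 224 CPM in *cyp-36A1(lf); egl-9(lf)* animals, against 12.4 and 24.5 CPM in *egl-9(lf)* animals and 755 and 757 CPM in the wild type, a log2 fold change of 3.58 (SE 0.25, edgeR adjusted p = 1.9e-05). *pud-4* was at 60.2 and 54.9 CPM against 4.99 and 6.73 CPM in *egl-9(lf)* and 201 and 201 CPM in the wild type. These genes thus remained below their wild-type levels. Next to them *irld-53* and *clec-209* were lower, *irld-53* at 0 and 0.247 CPM against 1.14 and 2.32 CPM in *egl-9(lf)* and 21.3 and 34.5 CPM in the wild type, with adjusted p of up to 0.29 by edgeR with 1 library left out. The nearby pseudogene Y19D10B.4 was also lower, at 0.0518 and 0.185 CPM against 7.63 and 11.81 CPM in *egl-9(lf)* and 25.2 and 35.4 CPM in the wild type. Genes of opposite direction thus lay side by side.

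Some genes of yolk and lipid metabolism rose. Of the 6 vitellogenin genes, which encode the yolk proteins that the intestine supplies to oocytes, 3 rose, with a median log2 fold change of 0.57, and DESeq2 called all 6 higher. *vit-1* was at 6649 and 6710 CPM in *cyp-36A1(lf); egl-9(lf)* animals, against 3538 and 3738 CPM in *egl-9(lf)* animals and 11320 and 10680 CPM in the wild type, a log2 fold change of 0.88 (SE 0.13, edgeR adjusted p = 0.00414). *vit-3* and *vit-4* each rose by 0.69 on the log2 scale, and *vit-2*, *vit-5* and *vit-6* had changes of 0.45, 0.42 and 0.46 that were not called. Summed over the 6 genes the level was 77970 and 81310 CPM against 57920 and 52820 CPM in *egl-9(lf)* and 107400 and 99020 CPM in the wild type, so that yolk transcripts lay between the *egl-9(lf)* and wild-type levels. Without replicate 1 of *egl-9(lf)* none of the 3 was called, and *vit-1*, *vit-3* and *vit-4* had adjusted p of 0.061, 0.12 and 0.13 by edgeR. Without its replicate 2 *vit-3* and *vit-4* also lost their calls, with adjusted p of 0.16 and 0.15 by edgeR. Vitellogenin transcripts resemble each other, and RSEM divided the reads that match several of them.

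Of 114 tested genes of a wider lipid list, vitellogenins included, 11 rose and 3 fell, and without replicate 1 of *cyp-36A1(lf); egl-9(lf)* 8 rose and 3 fell. *lips-15*, a lipase-related gene, was at 48.5 and 41.9 CPM in *cyp-36A1(lf); egl-9(lf)* animals, against 10.04 and 11.07 CPM in *egl-9(lf)* animals and 35.3 and 36.3 CPM in the wild type, a log2 fold change of 2.10 (SE 0.15, edgeR adjusted p = 1.8e-05). *acox-1.2* and *acox-1.3*, neighbouring genes for peroxisomal acyl-CoA oxidases, rose by 1.02 and 1.13 on the log2 scale, with adjusted p of up to 0.2 and 0.061 by edgeR with 1 library left out. *acox-1.5* fell, at 1.605 and 3.45 CPM against 11.6 and 14.8 CPM in *egl-9(lf)*. Members of 1 enzyme family thus moved in both directions. *cth-1*, which encodes a cystathionine gamma-lyase of cysteine synthesis, was the called member among 12 genes of cysteine and sulfide metabolism, at 10.2 and 12.4 CPM against 1.98 and 3.21 CPM in *egl-9(lf)* and 7.98 and 10.9 CPM in the wild type.

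Among 45 tested protease genes 4 fell and 3 rose, and without replicate 1 of *cyp-36A1(lf); egl-9(lf)* 2 fell and 2 rose. *cpr-4*, a cathepsin B-like gene, was at 236 and 217 CPM in *cyp-36A1(lf); egl-9(lf)* animals, against 123 and 102 CPM in *egl-9(lf)* animals and 218 and 208 CPM in the wild type. *asp-8* rose by 2.53 on the log2 scale, and *cpr-3* fell by 1.98, the last with adjusted p of up to 0.069 by edgeR with 1 library left out. *cpr-1*, which is among the most abundant genes that fell, was at 549 and 476 CPM against 905 and 862 CPM in *egl-9(lf)* and 154 and 129 CPM in the wild type. Of the other abundant genes that fell, *lea-1*, named for its likeness to plant late embryogenesis abundant proteins, was at 348 and 369 CPM against 583 and 526 CPM, and T21H3.1 was at 401 and 335 CPM against 571 and 597 CPM. *cpr-1*, *lea-1* and T21H3.1 each lost the call in 2 or more of the 4 fits with 1 library left out, with adjusted p of up to 0.14, 0.14 and 0.12 by edgeR. *far-3*, a gene for a fatty acid and retinol binding protein chosen for its size of change after the values were seen, was at 17.4 and 19.8 CPM against 334 and 376 CPM in *egl-9(lf)* and 8.62 and 8.88 CPM in the wild type.

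Lists of genes for other tissues and stages were examined because whole animals hold many cell types. By edgeR no member was called among 9 epidermis, 13 muscle, 14 neuron, 19 germ line and oocyte, 7 embryo and 100 sperm markers tested. At an unadjusted p under 0.05, 2 sperm markers were lower and 20 higher. At the same threshold 1 muscle and 1 germ line marker were higher, with none in the other 3 lists. Over all 14311 tested features 698 were lower and 647 higher at this threshold. DESeq2 called 2 sperm markers, both higher. Under the replicate block 1 sperm marker was lower and 2 were higher, and none of the other 5 lists had a call. Germ line and oocyte markers summed to 14070 and 14280 CPM in *cyp-36A1(lf); egl-9(lf)* animals and 13850 and 13980 CPM in *egl-9(lf)* animals, and embryo markers to 437 and 480 CPM against 489 and 486 CPM. Sperm markers summed to 4169 and 3545 CPM in *cyp-36A1(lf); egl-9(lf)* against 3070 and 3297 CPM in *egl-9(lf)* and 7093 and 7224 CPM in the wild type, with a median log2 fold change of 0.25. The sperm sums did not overlap, and their part in the results was not tested. Of 14 intestine markers *mtl-1*, a metallothionein gene, fell by 1.02 and *gta-1*, a GABA transaminase gene, by 0.51 on the log2 scale, with adjusted p of up to 0.1 and 0.19 by edgeR with 1 library left out, and the summed level was 4854 and 4392 CPM against 4421 and 4410 CPM.

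No gene was called by edgeR among 21 *hsp* genes, 20 glycolysis genes, 52 neuropeptide genes, 33 genes of egg laying and neurotransmission, 78 ribosomal protein genes or 48 genes of the mitochondrial respiratory chain, and DESeq2 called none of them either. Under the replicate block 1 glycolysis gene was lower and 1 higher, and the other 5 lists had no call. In these 6 lists 2, 4, 3, 2, 0 and 1 genes had an unadjusted p under 0.05. The *hsp* list did not hold F44E5.4 and F44E5.5, genes of the HSP70 family whose calls are described above. Of 237 F-box genes *fbxa-105* and *fbxa-91* fell by 3.66 and 2.35 on the log2 scale, the second with adjusted p of up to 0.3 by edgeR with 1 library left out. Of 83 chemoreceptor-like genes *srlf-35* and the serpin gene *srp-2* fell and *sri-40* and *srh-46* rose. The lower share was 0.844% of the F-box genes and 2.41% of the chemoreceptor-like genes, against 1.30% of all tested features. No F-box gene was higher, and 2.41% of the chemoreceptor-like genes were, against 1.03% of all tested features. These counts are not read as traits of either list. *srlf-35* was at 2.75 and 2.90 CPM in *cyp-36A1(lf); egl-9(lf)* animals, against 13.04 and 15.1 CPM in *egl-9(lf)* animals. *srh-46* was under 1 CPM in all 4 libraries, and *sri-40* and *srh-46* had adjusted p of up to 0.12 and 0.16 by edgeR with 1 library left out.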

How the data were processed

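RNA-seq of whole young adults was analysed in 8 libraries, 2 for each of 4 strains. The authors counted reads against Ensembl 65 annotation of genome build ce10 with RSEM 1.2.15 and Bowtie 1.0.1, and deposited expected counts, which are estimates that need not be whole because RSEM divides reads among genes they match equally well. The authors also deposited FPKM, fragments scaled by transcript length and library size. The submitters' processing notes also name BWA 0.7.5a, SAMtools 0.1.19 and bedtools 2.17.0. Whether counting used strand is not given in the sources used here.

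Expected counts were rounded and tested with edgeR 4.0.16 in R 4.3.3: TMM scaling, the filterByExpr filter by strain, 1 quasi-likelihood model with a mean for each strain over all 8 libraries, and Benjamini-Hochberg adjustment over 14311 features. SE is the absolute log2 fold change divided by the square root of F. Genes at 0 in both libraries of a strain were compared with 3 counts over the strain. The alternatives were scaling by library size or by median ratio, no filter, a revised dispersion estimate, DESeq2 1.42.0, limma 3.58.1 on log2(FPKM + 0.5) for features of at least 1 FPKM in at least 2 libraries, replicate number as a block, only the compared strains, an adjusted p of 0.01, and each library left out.

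Same-numbered libraries of the 6 strain pairs deviated together, with correlations of 0.121 to 0.319 over 14311 genes. Each strain gives a single difference between its libraries, and the genes are not independent. These correlations therefore cannot establish that the numbers pair the libraries, and the labels do not state a pairing. The main fit and the fits with a library left out treat the libraries as unpaired. Only the replicate block assumed a pairing, and it is given as an alternative. All 186 lower and 148 higher genes of the main fit were also called under the block, which called further genes as well. The replicates are described as biological, with no statement here of how they were separated, so p-values measure only the spread between these libraries.

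Names and gene order came from RefSeq genes of WBcel235, in which 44080 of 45461 features matched, and 16 further names came from the study's supplement. No coordinates are given, because the builds differ. The members and gene lists were chosen with earlier results of these data known. Named genes were the targeted genes and the hypoxia list, the 15 lower and 10 higher genes of largest change among non-overlapping genes of at least 1 CPM in the higher strain, the same with 12 lower and 8 higher unchanged, 8 lower raised and 6 higher lowered genes, up to 4 called members of smallest adjusted p per list, and the 5 lower and 5 higher genes of highest mean. The genes of the neighbouring runs, *pud* and *amt* genes, *cdr-2*, Y73F8A.35, *far-3*, *gon-2*, *acox-1.2*, *acox-1.3*, *col-126*, *col-127*, *vit-2*, *vit-5*, *vit-6* and the remaining infection-response genes were named after their values were seen, as were the windows and stretches of gene order and the name-prefix counts.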

Additional observations from a re-analysis of the deposited data

How the results depend on the processing

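Without a filter on low counts 492 genes were lower and 348 higher, and the lower genes comprised 142 unchanged and 206 raised genes, the higher genes 45 unchanged and 188 lowered genes. With replicate number as a block these values were 369 and 272, 103 and 165, and 30 and 166. The block changed the calls of *cyp-36A1* and F22B5.4 and no other call of a named gene. At an adjusted p of 0.01 the counts were 108 and 83, 24 and 57, and 6 and 58. With only the compared strains in the fit 29 lower and 8 higher genes were unchanged in *egl-9(lf)*, and 64 higher genes were lowered. With each of the 8 libraries left out in turn, edgeR called 89 to 223 lower genes, of which 17 to 55 were unchanged and 46 to 111 raised, and 78 to 171 higher genes, of which 4 to 14 were unchanged and 57 to 104 lowered. Each lowest value came without replicate 1 of *cyp-36A1(lf); egl-9(lf)*. Under the other alternatives these counts stayed within 1.5 times the main ones, with 235 lower and 130 higher genes under library size alone. The cause of these differences was not tested. Without the filter *cyp-36A1*, *sqrd-1* and F22B5.4 were also called, with DESeq2 F22B5.4, and with the revised dispersion estimate and no filter *fmo-2*. No named gene reversed. Of 108 named called genes, DESeq2 no longer called 7, limma 9, and the fit without replicate 1 of *cyp-36A1(lf); egl-9(lf)* 43. With 2 libraries per strain, differences in genes with few counts may not have been detectable at this depth.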

Other observations

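Called genes of some families without a fixed list of their own were counted by name prefix, after the calls were seen and with no test of the families. Beside 1.30% lower and 1.03% higher among all tested features, 5 of 32 tested *cest* genes, which encode carboxylesterases, were higher in animals without *cyp-36A1*. Of 9 *dod* genes, named as downstream of DAF-16, 4 were lower, and of these *dod-22* and *dod-24* were already counted among the infection-response genes. Of 52 *ttr* genes, which encode transthyretin-like proteins, 3 were lower and 1 higher. Of 18 tested *nspc* genes 4 were higher and 2 lower, and the higher *nspc-2* and *nspc-6* had identical counts in every library and are 1 observation.

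A few genes moved further in the direction in which *egl-9(lf)* had already moved them. The 7 genes raised in *egl-9(lf)* and higher still without *cyp-36A1*, with *clec-47* and *clec-60* among them, had a median level of 44.2 CPM in *cyp-36A1(lf); egl-9(lf)* animals, against 11.09 CPM in *egl-9(lf)* animals and 0.9003 CPM in the wild type. The 12 genes lowered in *egl-9(lf)* and lower again, with *clec-209* and *nhr-203* among them, had a median of 0.771 CPM in *cyp-36A1(lf); egl-9(lf)* animals, against 4.87 CPM in *egl-9(lf)* animals and 18.3 CPM in the wild type.

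The 96 lower genes that *egl-9(lf)* had raised came to a median of 2.65 CPM in *cyp-36A1(lf); egl-9(lf)* animals, against 16.3 CPM in *egl-9(lf)* animals and 2.22 CPM in the wild type. Their selection fixes the fall. Of these 96 genes 33 lay below both wild-type libraries, 37 above both and 26 overlapped them. Over all 14311 tested features 4704 lay below both, 4579 above both and 5028 overlapped them, which is a similar split. The split therefore does not show how many of the 96 genes missed the wild-type level. Single genes did differ from the wild type in both directions, such as *irg-5* at -2.09 and *dod-24* at 2.22 on the log2 scale.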
